A study of Mus musculus with 14 samples.

Results

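Collagen genes were described in the transcriptomes of mouse forelimb buds. They were taken as all gene symbols in the count files made of Col, a number, the letter a and a further number, each of which encodes 1 collagen alpha chain. This gave 43 of 23284 symbols, in 8 structural classes: 11 fibrillar collagens, 9 FACIT collagens (fibril-associated collagens with interrupted triple helices), 6 chains of the basement membrane network, 6 beaded filament chains, 4 transmembrane collagens, 3 short-chain network collagens, 2 multiplexins and 2 others. RNA-seq was done on 14 pairs of forelimb buds of NMRI mice, with both buds of 1 embryo per replicate. Wild-type (n=3) and *Smad4*Δ/Δc embryos (n=4) were taken at 30 somites, which is embryonic day E10.0, and further wild-type (n=3) and *Smad4*Δ/Δc embryos (n=4) at 35 somites, or E10.5. Wild-type embryos were *Smad4*+/+ and carried the same single PrxCre transgene (PrxCreT/+) as the mutants, which had 1 deleted and 1 floxed *Smad4* allele. The Prx-driven CRE acts in limb bud mesenchyme, so that ectoderm, endothelium, blood and cells that enter from the trunk are not its target. In mutants such cells still carried the 1 deleted *Smad4* allele, which those of wild type did not. RNA of the whole bud was sequenced.

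Collagens are secreted or membrane-bound proteins in which alpha chains wind into a triple helix. Chains of fibrillar collagens assemble into cross-linked fibrils, FACIT collagens sit on the surface of such fibrils, type IV chains form the sheet under epithelia and around vessels, and type VI chains form beaded filaments around cells. In the limb bud, loose mesenchyme makes types I, III and V, and cells that condense to cartilage go over to types II, IX and XI. SMAD4 is the shared partner of the receptor-activated SMADs of the BMP and TGFβ pathways, both of which are known to act on collagen production and on the onset of cartilage formation.

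Because *Smad4* encodes a transcription factor, the sequences upstream of the collagen genes are given for the members that rose with stage in both genotypes and whose window overlaps no annotated exon. The 250 bases before the start site were taken from RefSeq (GRCm38.p6) and placed in mm9 by exact match, which gave chr9:105730416-105730665 on the minus strand for *Col6a6*, chr1:24184199-24184448 on the plus strand for the upstream start of *Col9a1*, and chr11:51103172-51103421 on the plus strand for *Col23a1*. They are written 5′ to 3′, with the core of the SMAD binding element (CAGAC, or GTCTG on the other strand) in capitals.
Col6a6: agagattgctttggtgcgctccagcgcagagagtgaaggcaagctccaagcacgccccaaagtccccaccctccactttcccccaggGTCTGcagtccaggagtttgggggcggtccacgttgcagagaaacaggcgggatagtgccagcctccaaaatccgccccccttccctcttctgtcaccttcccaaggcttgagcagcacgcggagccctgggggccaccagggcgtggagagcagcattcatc
Col9a1: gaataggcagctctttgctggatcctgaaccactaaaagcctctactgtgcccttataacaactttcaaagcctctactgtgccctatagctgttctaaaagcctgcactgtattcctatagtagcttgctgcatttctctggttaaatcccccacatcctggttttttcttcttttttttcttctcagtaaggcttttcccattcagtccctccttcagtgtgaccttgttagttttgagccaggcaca
Col23a1: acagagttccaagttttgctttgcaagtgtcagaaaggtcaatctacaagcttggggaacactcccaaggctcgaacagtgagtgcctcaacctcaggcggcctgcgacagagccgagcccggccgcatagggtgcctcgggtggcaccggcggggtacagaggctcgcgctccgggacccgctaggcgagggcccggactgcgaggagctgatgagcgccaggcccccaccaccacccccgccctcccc

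The *Col6a6* window holds the SMAD core once and is 62.4% G+C. The *Col9a1* window (43.6% G+C) and the *Col23a1* window (66% G+C) do not hold these letters. On both strands, CAGAC was found in 17 of 38 promoter windows of 35 collagen genes (44.7%) and in 42.2% of all 32851 windows of the table. GGCGCC, a G+C-rich element known to be bound by BMP-activated SMADs and identical on both strands, was found in 4 collagen windows (10.5%) and in 9.59% of all windows. The TATA-like TATAAA was found in 5 collagen windows (13.2%) and in 12.4% of all windows. The median G+C content was 59% in the collagen windows and 52.4% over all windows. The shares of all 3 motifs in the collagen windows were thus close to those of all promoters. A match is a stretch of letters, and binding was not measured here.

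Between 34066930 and 61691258 reads per embryo were counted on genes, and 0.171% to 0.249% of them on collagen genes. As a check of the labels, *Smad4* was at 161 ± 8.43 CPM (wild type, SD, n=3) and 39.8 ± 4.19 CPM (mutants, SD, n=4) at the earlier stage and at 166 ± 2.27 and 37.0 ± 3.43 CPM at the later one, counted over the whole gene and not over the deleted exon alone. CPM are read counts relative to library size after TMM normalization. *Prrx1*, which defines limb bud mesenchyme, was at group means of 601 to 866 CPM. The 4 libraries of mutant replicates 4 and 5 stood apart from the other 10: ribosomal *Rn45s* took 1.72% to 8.05% of their reads against 0.151% to 0.478% elsewhere. For each comparison they enter, the count of collagen genes called is also given without them. Values of single collagen genes are so given only where stated. The lists of other genes and the cell type markers are given from all embryos only.

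Of the 43 collagen genes, 32 could be tested: 9 did not reach 1 CPM in at least 3 samples, and *Col4a5* and *Col4a6* lie on chromosome X, which the study left out. Called means an FDR (Benjamini-Hochberg adjusted P over all 12393 genes tested, from edgeR's exact test) of at most 0.1 with a fold change of at least 1.2. A log2 fold change compares mutant with wild type, or E10.5 with E10.0, and their standard errors (SE) come from the spread between embryos.

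Collagen transcripts were dominated by a few genes of mesenchyme and basement membrane. To compare genes with each other, CPM was divided by the length of the longest protein-coding transcript in kilobases, and means over the 14 samples follow. *Col3a1*, the sole chain of type III collagen (chr1:45368383-45406551, plus strand), was the highest at 89.5 CPM per kb (73.0 to 100.1). *Col4a1*, a chain of the network under epithelia and vessels (chr8:11198423-11312826, minus strand), came next at 55.7 CPM per kb (39.7 to 78.0). *Col1a2*, a chain of type I collagen (chr6:4454814-4491543, plus strand), was at 43.9 CPM per kb (25.1 to 61.2), and *Col18a1*, the basement membrane collagen that gives rise to endostatin (chr10:76514923-76629293, minus strand), at 36.6 CPM per kb. The ranges of *Col4a1*, *Col1a2* and *Col18a1* overlapped. The order depended on the length taken: per kb of all exons of the gene, *Col1a2* was at 19.3 CPM, below *Col18a1* (33.1) and *Col4a2* (27.4). The 3 genes with most reads took 49.6% of all collagen reads and the top 10 took 86.7%.

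The order within classes was steep. Among fibrillar genes, *Col3a1* and *Col1a2* were followed by *Col2a1* (19.8 CPM per kb), the fibril chain of cartilage, and *Col5a2* (17.1 CPM per kb), whose product limits fibril width. *Col11a1* was at 6.79, *Col5a1* at 6.40, *Col1a1* at 5.79, *Col27a1* at 2.92 and *Col24a1* at 0.457 CPM per kb. *Col11a2* and *Col5a3* were the lowest of the class at 0.141 and 0.040 CPM per kb. Of the type IV chains, *Col4a1* was followed by *Col4a2* (28.1), *Col4a5* (3.36) and *Col4a6* (0.908 CPM per kb), while *Col4a3* and *Col4a4*, the chains of the kidney filter, had 0 to 7 and 0 to 9 reads per library. Both multiplexins were well expressed, with *Col15a1* at 6.68 CPM per kb. Among transmembrane collagens, *Col23a1* (chr11:51103422-51397420, plus strand) led with 16.1 CPM per kb, before *Col25a1* (6.63), *Col13a1* (1.27) and *Col17a1* of epithelial hemidesmosomes (0.572 CPM per kb).

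FACIT, beaded filament and short-chain collagens were lower. *Col9a1*, a chain of the type IX collagen that coats cartilage fibrils (chr1:24184449-24259577, plus strand), led the FACIT class at 10.7 CPM per kb. It was followed by *Col12a1* (2.44 CPM per kb), which lies on type I fibrils of dense connective tissue. *Col16a1* (1.18), *Col14a1* (0.722), *Col22a1* (0.516), *Col9a3* (0.436), *Col9a2* (0.412) and *Col19a1* (0.227 CPM per kb) were lower still. *Col6a2*, *Col6a1* (chr10:76171537-76188913, minus strand) and *Col6a3* stood at 1.81, 1.78 and 1.15 CPM per kb and *Col6a6* at 0.083 CPM per kb. Per kb of all exons, *Col6a1* (1.66 CPM) was above *Col6a2* (1.01 CPM). *Col7a1*, the anchoring fibril collagen of skin (chr9:108855631-108886920, plus strand), was at 0.380 CPM per kb and *Col8a2* (chr4:125964037-125991574, plus strand) at 0.225 CPM per kb. The other members under the filter were near the floor. *Col10a1*, which marks hypertrophic cartilage, had 0 to 7 reads per library, *Col6a5* 0 to 5, *Col6a4* 0 to 3, *Col5a3* 5 to 22, *Col20a1* 13 to 30, *Col28a1* 10 to 63 and *Col8a1* 1 to 34 reads.

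**Figure D1:**
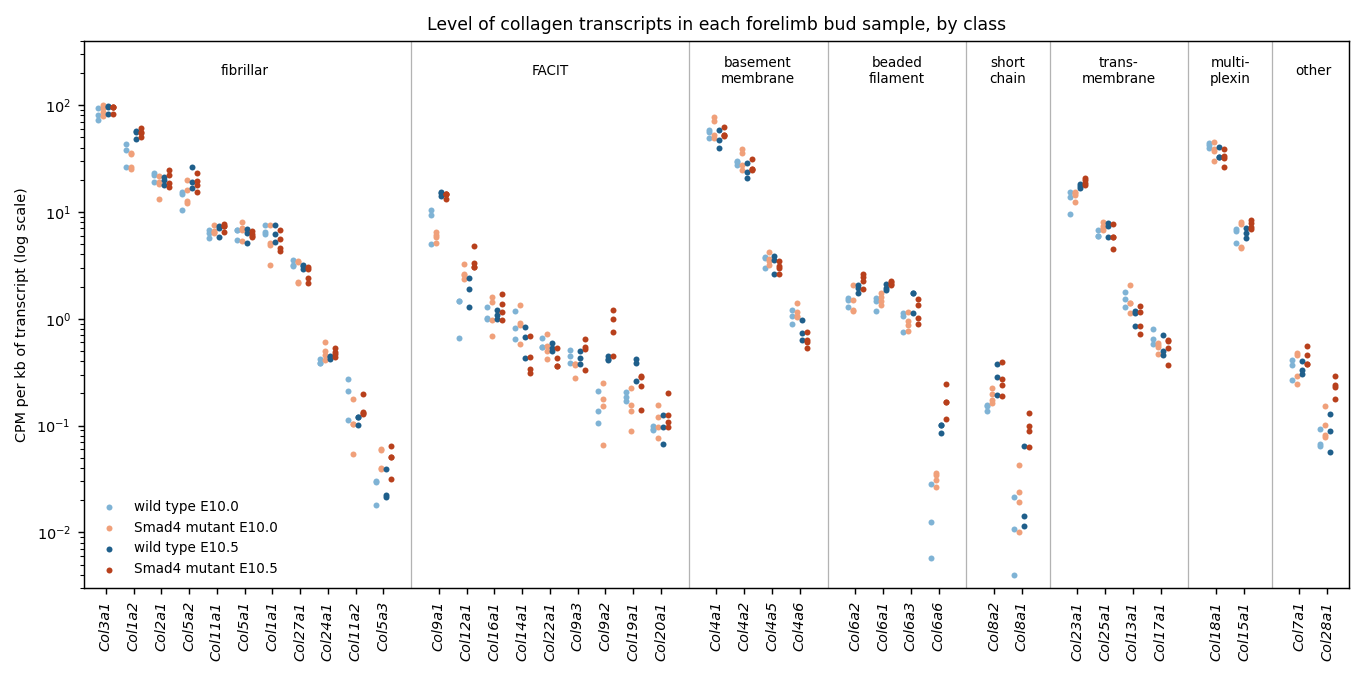
Levels of 38 collagen genes in CPM per kb of transcript on a log axis, grouped by class, with 1 point per embryo coloured by group. The 5 genes with no reads in some libraries are not drawn, and *Col3a1* is the highest of all classes with a mean of 89.5 CPM per kb.

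Several collagen genes lie next to each other. *Col9a1* and *Col19a1* lie 9.15 kb apart on opposite strands of chromosome 1 and differed in mean level, at 10.7 against 0.227 CPM per kb. *Col3a1* and *Col5a2* lie 24.6 kb apart, also on opposite strands. *Col6a2* and *Col6a1*, 85.2 kb apart on the same strand of chromosome 10, were at 1.81 and 1.78 CPM per kb. *Col4a1* and *Col4a2* start head to head and overlap by 22 bases of exon, and the 2 head-to-head genes *Col4a4* and *Col4a3* are 71 bases apart and were both near the floor. The tandem genes *Col6a6*, *Col6a5* and *Col6a4* on chromosome 9 are 28.0 and 28.8 kb apart, and of these *Col6a6* alone passed the filter. Reads were counted without regard to strand, so that the 234 exon bases that *Col9a3* shares with the antisense gene *Tcfl5* cannot be told apart.

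Chains that form the same trimer were compared as ratios of their levels per kb within each library, which needs no scaling between libraries. No test was run on the ratios, and their size depends on the length taken for each gene. *Col4a1* to *Col4a2* was the steadiest, at 1.78 to 2.12 over the 14 samples, with group means of 1.88 ± 0.118 (SD, n=3), 1.98 ± 0.0438 (n=4), 1.99 ± 0.0793 (n=3) and 2.07 ± 0.0529 (n=4) in wild type and mutants at E10.0 and then at E10.5. *Col6a1* to *Col6a2* lay between 0.832 and 1.25.

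The ratio of *Col1a2* to *Col1a1* was higher at the later stage in both genotypes. In wild type it was 5.34 ± 1.06 at E10.0 (SD, n=3; range 4.14 to 6.13) and 8.71 ± 1.07 at E10.5 (n=3; 7.48 to 9.33). In mutants it was 6.19 ± 1.48 at E10.0 (n=4; 4.79 to 7.87) and 10.7 ± 1.55 at E10.5 (n=4; 9.04 to 12.7). The stages did not overlap within a genotype, while wild type and mutants overlapped at each stage. *Col1a2* exceeded *Col1a1* per kb in all 14 libraries.

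Type IX chains were uneven as well. *Col9a1* to *Col9a3* stood at 18.2 ± 5.12 (wild type, SD, n=3) and 17.1 ± 3.47 (mutants, n=4) at the earlier stage, and at 34.5 ± 4.23 (n=3) and 29.3 ± 7.24 (n=4) at the later one. *Col9a1* to *Col9a2* ranged from 12.4 to 79.1 over the 14 samples. *Col5a2* to *Col5a1* ranged from 1.54 to 3.92.

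**Figure D2:**
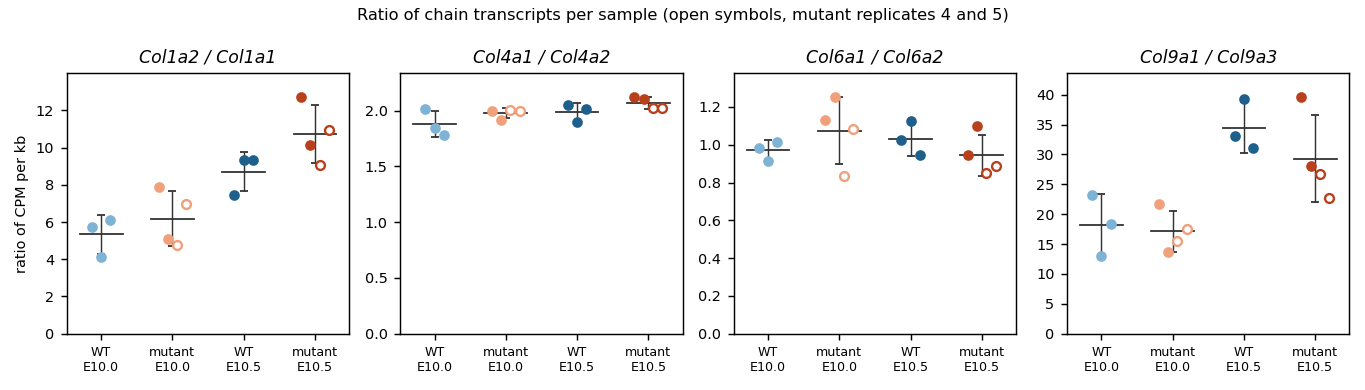
Ratios of partner chains in CPM per kb, 1 point per embryo, by genotype and stage, for *Col1a2* to *Col1a1*, *Col4a1* to *Col4a2*, *Col6a1* to *Col6a2* and *Col9a1* to *Col9a3*. The ratio of *Col4a1* to *Col4a2* stays between 1.78 and 2.12, while that of *Col1a2* to *Col1a1* runs from 4.14 to 12.7.

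The first comparison, at E10.0, asked which collagen genes differed between *Smad4*Δ/Δc and wild-type buds. Among the 32 tested, 2 (6.25%) were called, against 6.61% of all genes tested. *Col12a1* was higher, against 3.33% of all genes called higher, and *Col9a1* was lower, against 3.28% called lower. The share of collagen genes was therefore near that of all genes. The median log2 fold change was 0.05 over the collagen genes and −0.02 over all genes. Both calls were FACIT collagens, and at an unadjusted P under 0.05 there were 4 collagen genes.

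*Col12a1* (chr9:79446798-79566638, minus strand) was at 16.9, 16.9 and 7.55 CPM in wild-type replicates 1, 2 and 3 at E10.0. In mutant replicates 1, 3, 4 and 5 it was at 29.8, 30.2, 27.4 and 37.2 CPM. The lowest mutant was above the highest wild type. The means were 13.8 ± 5.39 (SD, n=3) and 31.1 ± 4.23 CPM (SD, n=4), a log2 fold change of 1.18 (SE 0.40, edgeR FDR 0.000153). Without mutant replicates 4 and 5 the log2 fold change was 1.14 (edgeR FDR 0.00183).

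*Col9a1* was at 40.1, 19.1 and 35.8 CPM in the wild-type replicates at E10.0 and at 23.4, 19.8, 22.3 and 25.0 CPM in mutant replicates 1, 3, 4 and 5. Wild-type replicate 2 was below all 4 mutants, so that the groups overlapped. The log2 fold change was −0.49 (SE 0.34, edgeR FDR 0.0586). The call was lost without wild-type replicate 1 (−0.28, edgeR FDR 0.426), wild-type replicate 3 (−0.38, edgeR FDR 0.456) or mutant replicate 3 (−0.43, edgeR FDR 0.153), and without wild-type replicate 2 the log2 fold change was −0.75 (edgeR FDR 1.01e-08).

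At E10.5 the same question gave 2 called genes of 32 (6.25%), against 3.73% of all genes, and both were higher, against 2.19% of all genes called higher. Among these 2, *Col6a6* passed the filter on low counts only through the group in which it was higher, so that the count was favoured by the filter. The median log2 fold change was 0.05 over the collagen genes and −0.01 over all genes. *Col12a1* was at 21.8, 14.7 and 27.9 CPM in wild-type replicates 1, 2 and 3, and at 55.0, 38.0, 35.0 and 34.7 CPM in mutant replicates 1, 2, 4 and 5. All mutants were above all wild types, as at E10.0. The means were 21.5 ± 6.63 (SD, n=3) and 40.7 ± 9.65 CPM (SD, n=4), and the log2 fold change was 0.92 (SE 0.31, edgeR FDR 0.00653). Without wild-type replicate 2 it was 0.72 (edgeR FDR 0.17), and without mutant replicates 4 and 5 it was 1.13 (edgeR FDR 0.00332).

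*Col6a6* (chr9:105591747-105730415, minus strand), a type VI chain, was at 0.72, 0.61 and 0.72 CPM in wild type (30 to 33 reads) and at 1.17, 1.74, 1.19 and 0.81 CPM in mutants (25 to 89 reads) at E10.5. The groups did not overlap, and the log2 fold change was 0.87 (SE 0.23, edgeR FDR 0.0985), close to the threshold. It passed the filter on low counts through the mutants at E10.5 alone, and the call was lost when any wild-type replicate of this stage was left out (edgeR FDR 0.216 to 0.472). *Col9a2* was at 1.2, 1.24 and 1.31 CPM in wild type and at 2.20, 1.31, 2.89 and 3.52 CPM in mutants. Its log2 fold change was 0.97 (SE 0.31, edgeR FDR 0.104), so that it was not called, and without mutant replicates 4 and 5 it was 0.50 (edgeR FDR 0.494).

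**Figure D3:**
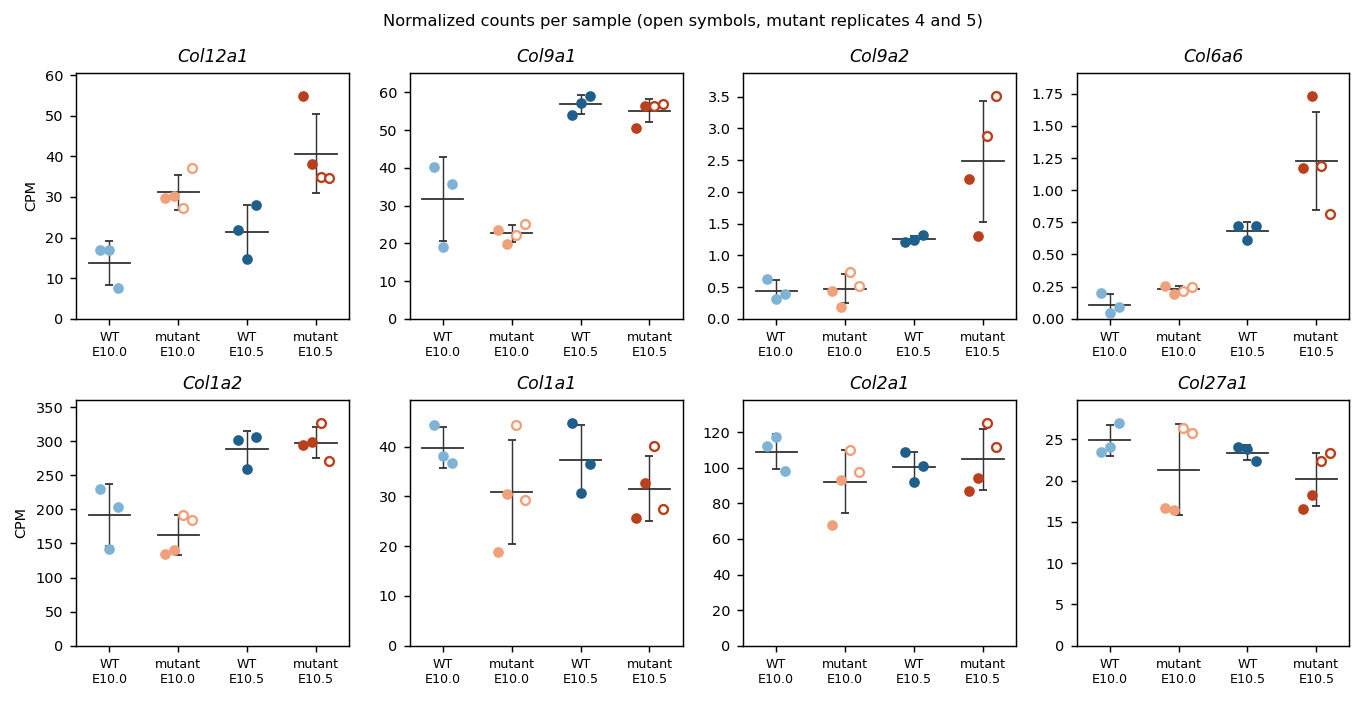
CPM of 8 collagen genes in each of the 14 embryos by genotype and stage, with group means as lines and the SD as bars, and mutant replicates 4 and 5 as open symbols. *Col12a1* separates the genotypes at both stages, and *Col9a1*, *Col9a2*, *Col6a6* and *Col1a2* separate the stages in each genotype. Of these, *Col9a2* and *Col6a6* passed the filter on low counts through E10.5 groups.

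The highest gene of each class other than FACIT, taken per kb of all exons, was not called between genotypes in the fit of all embryos. Per kb of transcript, *Col6a2* and not *Col6a1* was the highest of the beaded filament class. With the wild-type value first (SD, n=3) and the mutant value second (SD, n=4), *Col3a1* was at 459 ± 56.5 and 499 ± 51.3 CPM at E10.0 (edgeR FDR 0.602) and at 510 ± 45.1 and 517 ± 39.0 CPM at E10.5 (edgeR FDR 0.992). *Col4a1* was at 361 ± 30.7 and 416 ± 92.9 CPM at E10.0 (edgeR FDR 0.493). *Col18a1* was at 265 ± 13.5 and 240 ± 40.3 CPM at E10.0 (edgeR FDR 0.622). *Col23a1* was at 72.6 ± 16.8 and 80.4 ± 7.82 CPM (edgeR FDR 0.581), and *Col6a1* at 5.79 ± 0.823 and 6.33 ± 0.677 CPM (edgeR FDR 0.703). *Col7a1* was at 3.23 ± 0.7 and 3.39 ± 1.08 CPM (edgeR FDR 0.931), and *Col8a2* at 0.642 ± 0.042 and 0.827 ± 0.122 CPM (log2 fold change 0.35, SE 0.11, edgeR FDR 0.586). For *Col8a2* alone of these genes the genotypes did not overlap at E10.0. An FDR above the threshold does not show that these levels were equal.

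The effect of genotype on several fibrillar genes depended on mutant replicates 4 and 5, which had the high *Rn45s* shares and lower depth (34066930 to 43317508 reads, against 51756177 to 61691258 in the other mutants). At E10.0 both replicates were above both other mutants in 19 of the 32 collagen genes (59.4%) and in 28.1% of all genes tested. They were both below them in 1 collagen gene (3.13%) and in 28.5% of all genes. Without them, 8 of 30 collagen genes were called at E10.0, 1 higher and 7 lower, against 16.4% of all genes called and 10.2% called lower.

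Besides *Col12a1* and *Col9a1* (−0.54, edgeR FDR 0.0660), the genes then called were *Col1a1* (−0.67, edgeR FDR 0.00843), *Col27a1* (−0.57, edgeR FDR 5.20e-05), *Col1a2* (−0.47, edgeR FDR 0.0219), *Col2a1* (−0.42, edgeR FDR 0.0113), *Col15a1* (−0.41, edgeR FDR 0.0303) and *Col18a1* (−0.30, edgeR FDR 0.0725). *Col1a1*, the other chain of type I collagen, was at 44.4, 38.1 and 36.7 CPM in wild type and at 18.9 and 30.6 CPM in mutant replicates 1 and 3, and at 44.4 and 29.4 CPM in mutant replicates 4 and 5. Of the latter pair, replicate 4 was thus at the highest wild-type value and replicate 5 was below all wild types and below mutant replicate 3. *Col27a1*, a fibrillar collagen of cartilage, was at 23.5, 24.1 and 27.0 CPM in wild type, at 16.7 and 16.4 CPM in mutant replicates 1 and 3, and at 26.4 and 25.8 CPM in replicates 4 and 5. Replicates 4 and 5 were thus at the wild-type level of *Col27a1* and replicates 1 and 3 below it.

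At E10.5, replicates 4 and 5 were both above the other mutants in 12 collagen genes (37.5%) and in 29.9% of all genes, and both below in 2 (6.25%) and in 31.9% of all genes. Without them, 2 of 30 were called at this stage, *Col12a1* and *Col27a1* (−0.41, edgeR FDR 0.0131), against 4.27% of all genes. Of the 30 genes, 26 had a lower log2 fold change at E10.0 without the 2 replicates than with them. The matching share over all genes was not counted. The median over all genes was −0.017 with them and 0.015 without them. This count of 26 comes from the same libraries as the counts above or below the other mutants and is no further result. What part the *Rn45s* share or the depth had in these shifts was not tested.

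**Figure D4:**
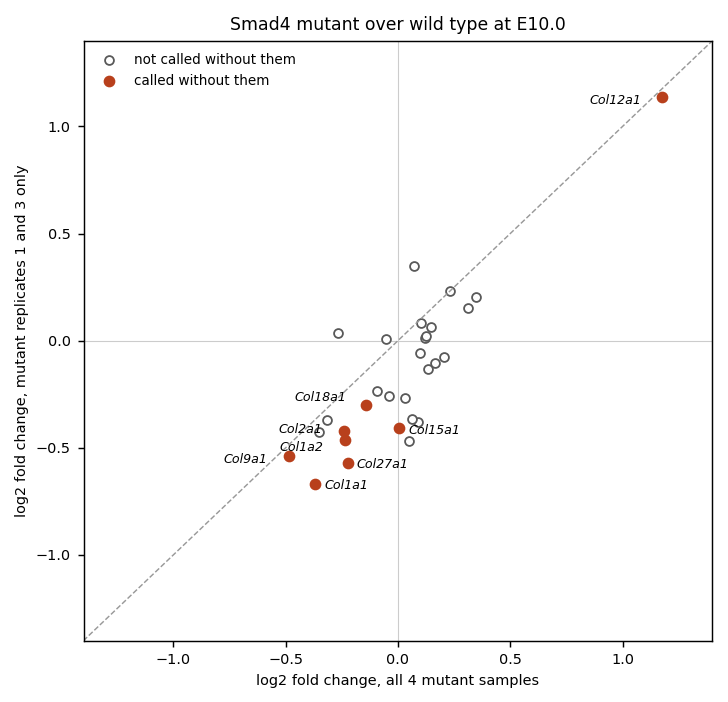
Log2 fold change of mutant over wild type at E10.0 for 30 collagen genes, with all 4 mutants on the horizontal axis and without mutant replicates 4 and 5 on the vertical axis. In 26 of 30 genes the point lies below the diagonal of equal values, and the matching share over all genes was not counted.

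The second pair of comparisons asked which collagen genes changed from E10.0 to E10.5 within a genotype. The stage comparison of each genotype shares its embryos with the genotype comparisons, while the 2 stage comparisons share none with each other. In wild type, 10 of 32 collagen genes rose (31.3%) and 0 fell, against 10.1% of all genes called and 5.39% called higher. In mutants, 8 rose and 3 fell (34.4% called), against 19.2% of all genes called, 10.8% called higher and 8.4% called lower. The median log2 fold change of the collagen genes was 0.07 in wild type and 0.23 in mutants, beside −0.01 over all genes in both.

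Some members passed the filter through the E10.5 groups, which favoured a rise, namely *Col19a1*, *Col8a2*, *Col9a2* and *Col6a6*. Among the 28 members with a mean of at least 1 CPM over the 14 samples, a limit chosen after seeing the data, 7 rose in wild type, against 5.05% of all genes so chosen. In mutants 7 rose and 3 fell, against 18.7% called. *Col9a2*, whose mean is carried by the E10.5 groups, is still among these genes and rose in both genotypes. The 6 genes that rose in both genotypes were *Col1a2*, *Col23a1*, *Col6a1*, *Col6a6*, *Col9a1* and *Col9a2*, which are 60% of the genes called in wild type and 54.5% of those called in mutants. Over all genes, those called in both stage comparisons were 69.9% of the wild-type list and 37% of the mutant list. *Col6a6* and *Col9a2* had entered through the E10.5 groups.

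Of the 8 FACIT genes tested, 3 rose in wild type, and 3 rose and 1 fell in mutants. *Col9a2*, in both counts, and *Col19a1*, in the wild-type count, had passed the filter on low counts through the E10.5 groups. *Col9a1* was at 54.0, 57.2 and 59.2 CPM in wild type at E10.5, above the 19.1 to 40.1 CPM of E10.0, a log2 fold change of 0.84 (SE 0.33, edgeR FDR 8.69e-05). In mutants it was at 50.6 to 57.0 CPM after 19.8 to 25.0 CPM at E10.0, a log2 fold change of 1.28 (SE 0.08, edgeR FDR 8.22e-15). The stages did not overlap in either genotype.

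*Col9a2*, which encodes a further chain of the type IX trimer, was at 0.62, 0.31 and 0.40 CPM in wild type at E10.0 and at 1.2, 1.24 and 1.31 CPM at E10.5 (log2 fold change 1.49, SE 0.27, edgeR FDR 0.00397). In mutants it went from 0.44, 0.19, 0.74 and 0.52 CPM to 2.20, 1.31, 2.89 and 3.52 CPM (log2 fold change 2.41, SE 0.48, edgeR FDR 9.86e-11). Both stages were apart in each genotype. *Col9a3*, the remaining type IX chain, was called in mutants (1.07 ± 0.143 to 1.57 ± 0.406 CPM, SD, n=4 each, log2 fold change 0.54, SE 0.22, edgeR FDR 0.0782), with overlapping stages. The call was lost without mutant replicates 4 and 5 (0.39, edgeR FDR 0.477) and when 7 of the 8 mutants were left out singly (edgeR FDR 0.101 to 0.267). In wild type it was at 1.36 ± 0.188 and 1.32 ± 0.177 CPM (edgeR FDR 0.972). *Col19a1*, a minor FACIT collagen, rose in wild type from 0.797 ± 0.0770 to 1.51 ± 0.360 CPM (SD, n=3 each, log2 fold change 0.92, SE 0.22, edgeR FDR 0.0426).

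*Col14a1*, a FACIT collagen found on fibrils of tendon and skin, was the member with the steepest fall in mutants. It was at 5.63, 8.74, 5.90 and 3.76 CPM in mutant replicates 1, 3, 4 and 5 at E10.0 and at 2.81, 4.47, 2.18 and 2.02 CPM in replicates 1, 2, 4 and 5 at E10.5 (log2 fold change −1.06, SE 0.355, edgeR FDR 0.00222). Replicate 2 at E10.5 was above replicate 5 at E10.0, so that the stages overlapped. In wild type the means were 5.72 ± 1.82 and 4.19 ± 1.35 CPM (SD, n=3 each, log2 fold change −0.45, edgeR FDR 0.442). *Col12a1*, which separated the genotypes, was not called between stages in wild type (log2 fold change 0.64, edgeR FDR 0.102) or in mutants (0.39, edgeR FDR 0.222). Without mutant replicates 4 and 5, which share in the estimate of the spread, the wild-type value passed (0.65, edgeR FDR 0.0631).

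Of the 4 beaded filament genes tested, 3 rose in each genotype. *Col6a6*, among the 3 in both, passed the filter on low counts through the mutants at E10.5 alone, which favoured its rise in mutants. *Col6a6* had 11, 2 and 4 reads in the wild-type replicates at E10.0 and 30, 31 and 33 reads at E10.5, which is 0.110 ± 0.0823 and 0.684 ± 0.0650 CPM (SD, n=3 each) and a log2 fold change of 2.56 (SE 0.45, edgeR FDR 2.25e-07). In mutants it had 15, 11, 8 and 10 reads and then 66, 89, 42 and 25 reads, or 0.228 ± 0.0297 and 1.23 ± 0.381 CPM (SD, n=4 each, log2 fold change 2.44, SE 0.23, edgeR FDR 7.02e-13). No library of E10.5 was as low as any of E10.0, though all counts were small.

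The other type VI genes moved less. *Col6a1* rose by a log2 fold change of 0.48 in wild type (5.79 ± 0.823 to 8.08 ± 0.593 CPM, SE 0.14, edgeR FDR 0.0236) and of 0.48 in mutants (6.33 ± 0.677 to 8.84 ± 0.308 CPM, SE 0.08, edgeR FDR 0.00208), without overlap in either. *Col6a2* rose in mutants (6.92 ± 1.98 to 10.7 ± 1.51 CPM, log2 fold change 0.64, SE 0.22, edgeR FDR 0.00209), and in wild type it was at 6.74 ± 0.609 and 8.92 ± 0.824 CPM (log2 fold change 0.40, edgeR FDR 0.208), without overlap. *Col6a3* rose in wild type (8.56 ± 1.74 to 13.5 ± 3.05 CPM, log2 fold change 0.65, SE 0.27, edgeR FDR 0.0433), and in mutants it was at 8.25 ± 1.47 and 10.4 ± 2.52 CPM (0.34, edgeR FDR 0.232). The class as a sum went from 21.2 ± 1.65 to 31.2 ± 4.03 CPM in wild type (SD, n=3 each) and from 21.8 ± 2.71 to 31.3 ± 3.50 CPM in mutants (SD, n=4 each).

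Of the 10 fibrillar genes tested, 2 rose in wild type and 1 in mutants. *Col1a2* was at 230, 142 and 203 CPM in wild type at E10.0 and at 302, 259 and 306 CPM at E10.5 (log2 fold change 0.59, SE 0.22, edgeR FDR 0.00411). In mutants it was at 134, 141, 192 and 185 CPM at E10.0 and at 294, 299, 327 and 271 CPM at E10.5 (log2 fold change 0.87, SE 0.14, edgeR FDR 6.17e-09). Neither genotype had overlapping stages. Its partner *Col1a1* was at 39.7 ± 4.11 and 37.3 ± 7.08 CPM in wild type (edgeR FDR 0.871) and at 30.8 ± 10.5 and 31.5 ± 6.51 CPM in mutants (edgeR FDR 0.937). *Col5a2* rose in wild type from 89.4 ± 17.9 to 137 ± 32.9 CPM (SD, n=3 each, log2 fold change 0.62, SE 0.26, edgeR FDR 0.0236). In mutants it was at 100.4 ± 23.5 and 125 ± 21.3 CPM (0.32, edgeR FDR 0.178), and without mutant replicates 4 and 5 it rose there as well (0.73, edgeR FDR 0.00242). *Col2a1*, the main cartilage collagen, was at 109 ± 9.97 and 101 ± 8.44 CPM in wild type (edgeR FDR 0.708) and at 92.3 ± 17.7 and 105 ± 17.4 CPM in mutants (edgeR FDR 0.36).

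Transmembrane collagens went both ways. *Col23a1* rose in wild type from 86.1, 53.7 and 78.1 CPM to 99.2, 102 and 95.7 CPM (log2 fold change 0.45, SE 0.21, edgeR FDR 0.0143) and in mutants from 80.4 ± 7.82 to 109 ± 7.55 CPM (SD, n=4 each, log2 fold change 0.44, SE 0.09, edgeR FDR 0.0013). The stages were apart in both. *Col13a1* fell in mutants from 4.75 ± 1.23 to 3.20 ± 0.857 CPM (log2 fold change −0.58, SE 0.26, edgeR FDR 0.0433), a call that was lost without replicate 4 at E10.0 (−0.40, edgeR FDR 0.218) or replicate 1 (−0.43, edgeR FDR 0.178) or 2 (−0.50, edgeR FDR 0.162) at E10.5. In wild type it was at 4.87 ± 0.805 and 3.33 ± 0.554 CPM (−0.55, edgeR FDR 0.169). *Col25a1* fell in mutants from 49.0 ± 3.86 to 39.8 ± 8.78 CPM (log2 fold change −0.30, SE 0.17, edgeR FDR 0.0953), a call that was lost without mutant replicates 4 and 5 (−0.10, edgeR FDR 0.757). Among short-chain collagens, *Col8a2* rose in wild type from 0.642 ± 0.042 to 1.23 ± 0.395 CPM (SD, n=3 each, log2 fold change 0.95, SE 0.27, edgeR FDR 0.0318). It had passed the filter on low counts through the E10.5 groups.

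The tested chains *Col4a1* and *Col4a2*, both multiplexins and *Col7a1* were not called between stages in the fit of all embryos. Without mutant replicates 4 and 5, the multiplexin *Col15a1* rose with stage in mutants (log2 fold change 0.67, edgeR FDR 0.000164), beside 0.28 (edgeR FDR 0.245) with them. The summed type IV chains were at 577 ± 40.3 and 506 ± 90.6 CPM in wild type (SD, n=3 each) and at 653 ± 136 and 558 ± 54.9 CPM in mutants (SD, n=4 each). *Col4a1* had log2 fold changes of −0.16 (edgeR FDR 0.595) in wild type and −0.20 (edgeR FDR 0.346) in mutants, and *Col18a1* of −0.25 (edgeR FDR 0.28) and −0.22 (edgeR FDR 0.22). The fibrillar sum was at 1020 ± 116 and 1205 ± 126 CPM in wild type and at 1020 ± 139 and 1208 ± 84.8 CPM in mutants. The FACIT sum was at 65.0 ± 10.2 and 97.4 ± 9.63 CPM in wild type and at 73.4 ± 4.96 and 115 ± 4.41 CPM in mutants.

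**Figure D5:**
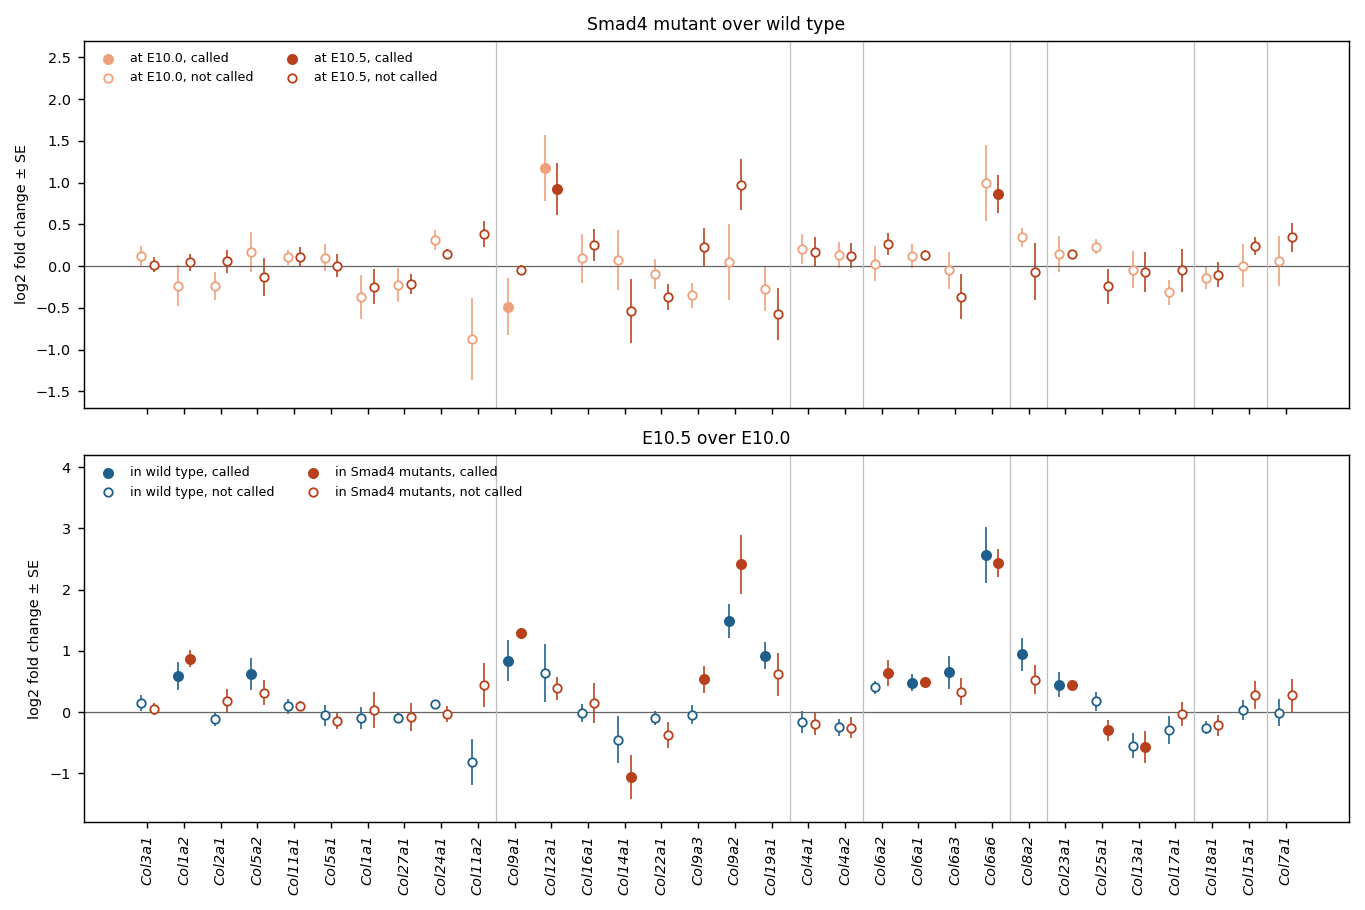
Log2 fold changes of the 32 tested collagen genes, ordered by class, for mutant over wild type in 1 panel and E10.5 over E10.0 in the other, with filled symbols for called genes. In the stage panel 10 genes are called in wild type and 11 in mutants, and in the genotype panel 2 at each stage.

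The wild-type calls between stages leaned on 1 library. Wild-type replicate 2 at E10.0 was the lowest of its group for *Col1a2*, *Col9a1*, *Col23a1*, *Col5a2*, *Col6a1* and *Col6a6*. Without it, 3 collagen genes were called (*Col6a6*, *Col9a1* and *Col9a2*), against 3.91% of all genes. Of these, *Col6a6* and *Col9a2* had passed the filter on low counts through the E10.5 groups, and *Col9a1* alone had not. *Col1a2* then had a log2 fold change of 0.42 (edgeR FDR 0.111), *Col5a2* of 0.46 (edgeR FDR 0.281), *Col6a1* of 0.37 (edgeR FDR 0.27) and *Col23a1* of 0.27 (edgeR FDR 0.231). *Col19a1*, *Col6a3* and *Col8a2* were also lost (edgeR FDR 0.13 to 0.141), with log2 fold changes of 0.997, 0.71 and 0.96. In mutants, leaving out replicates 4 and 5 gave 10 called genes, 8 of them shared with the fit of all embryos, against 17.5% of all genes.

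A gene called in one genotype and not in the other was not thereby shown to respond differently. The interaction of stage and genotype, which tests that difference, called 0 of 32 collagen genes in edgeR's quasi-likelihood test and 0 in DESeq2, against 0.186% of all genes in the former. At an unadjusted P under 0.05 there were 2. These were *Col11a2*, a minor fibril chain of cartilage, and *Col25a1*. The difference between the stage effects on the log2 scale was 1.26 for *Col11a2* (SE 0.52, edgeR FDR 0.784) and −0.47 for *Col25a1* (SE 0.23, edgeR FDR 0.807). *Col11a2* had 19 to 81 reads per library and reached 1 CPM in 4 samples. Of these samples, 2 were wild type at E10.0 and 0 were wild type at E10.5, so that the filter favoured its fall in wild type. For *Col9a1* the difference was 0.44 (SE 0.34, edgeR FDR 0.948) and for *Col12a1* −0.25 (SE 0.50, edgeR FDR 0.963). Without wild-type replicate 2 at E10.0, 1 gene passed, namely *Col9a1* with a difference of 0.70 on the log2 scale (edgeR quasi-likelihood FDR 0.0580), against 0.113% of all genes. Without mutant replicates 4 and 5, the interaction called 0 of 30 collagen genes, against 0.0488% of all genes in the quasi-likelihood test of edgeR. At an unadjusted P under 0.05 there were then 2, *Col15a1* (0.62, edgeR FDR 0.533) and *Col1a2* (0.51, edgeR FDR 0.637).

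The members outside the fit were looked at in alternatives without the filter or with chromosome X. *Col28a1* was at 0.24, 0.37 and 0.55 CPM in wild type at E10.5 and at 0.98, 1.23, 1.02 and 0.75 CPM in *Smad4*Δ/Δc, which gave a log2 fold change of 1.37 (edgeR FDR 0.00194), and it rose with stage in mutants by 1.21 (edgeR FDR 0.000554). *Col8a1*, a network collagen of vessels and cornea, rose with stage in mutants from 0.05, 0.12, 0.22 and 0.10 CPM to 0.32, 0.66, 0.51 and 0.46 CPM (log2 fold change 2.02, edgeR FDR 0.00161). Its mutant and wild-type levels at E10.5 had an edgeR FDR of 0.102. The X-linked *Col4a6*, a chain of epithelial basement membranes, fell in mutants from 6.89 to 9.35 CPM at E10.0 to 3.52 to 5.03 CPM at E10.5 (log2 fold change −0.88, edgeR FDR 3.71e-06). In wild type its log2 fold change was −0.44 (edgeR FDR 0.143). *Col4a5*, its neighbour 1308 bases away on the other strand, was not called.

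Genes that modify, secrete, cross-link, bind and degrade collagen were counted from lists kept beside the collagens. The shares of all genes called, against which these counts stand, were 6.61% and 3.73% between genotypes at E10.0 and E10.5, and 10.1% and 19.2% between stages in wild type and mutants. Of 17 genes tested for chain modification and folding, 1 was called between genotypes at E10.0 and 0 at E10.5 (2 at an unadjusted P under 0.05, edgeR). The call was *Leprel1*, a prolyl 3-hydroxylase (10.7 ± 0.434 to 13.3 ± 0.499 CPM, log2 fold change 0.31, edgeR FDR 0.0770). With stage, 1 rose and 1 fell in wild type and 2 fell in mutants. *Serpinh1*, the collagen chaperone, fell from 753 ± 19.2 to 570 ± 47.0 CPM in wild type (edgeR FDR 0.0132) and from 665 ± 78.0 to 524 ± 69.6 CPM in mutants (edgeR FDR 0.0068).

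Of 11 genes for secretion and propeptide removal, 0 were called between genotypes at E10.0 (3 at an unadjusted P under 0.05, edgeR) and 2 at E10.5. They were *Sec24d*, a coat protein of vesicles that carry procollagen (15.1 ± 0.224 to 21.7 ± 2.34 CPM, edgeR FDR 0.0021), and *Tll1*, a propeptide protease (3.96 ± 0.219 to 5.79 ± 0.451 CPM, edgeR FDR 0.0626). With stage, 0 were called in wild type (2 at an unadjusted P under 0.05), while 3 rose and 2 fell in mutants. Of 8 receptors, 1 was higher in mutants at E10.0 and 0 were called at E10.5 (3 at an unadjusted P under 0.05). It was *Ddr2*, a receptor tyrosine kinase for fibrillar collagen (173 ± 17.3 to 219 ± 26.7 CPM, edgeR FDR 0.0378). With stage, 1 receptor rose in each genotype, *Ddr2* in wild type and *Itga11* in mutants. Of 7 proteases and inhibitors, 1 was lower at E10.0, *Mmp14* (117 ± 5.23 to 96.4 ± 10.6 CPM, edgeR FDR 0.0920), while 0 were called at E10.5 (1 at an unadjusted P under 0.05) and 3 rose with stage in each genotype.

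Of 11 cross-linking enzymes and fibril partners tested, 3 were higher and 1 lower in mutants at E10.0, and 2 were higher and 1 lower at E10.5. *Lum* encodes lumican, a proteoglycan on collagen fibrils. In wild type (SD, n=3) and then in mutants (SD, n=4) it was at 1.65 ± 0.242 and 3.96 ± 1.45 CPM at E10.0 (log2 fold change 1.27, SE 0.27), and at 6.57 ± 1.95 and 18.3 ± 2.04 CPM at E10.5 (1.48, SE 0.28). *Dcn*, which encodes the related decorin, was at 0.123 ± 0.0699 and 0.712 ± 0.220 CPM at E10.0 (2.47, SE 0.41). Both of these means were under 1 CPM, so that *Dcn* passed the filter on low counts mainly through the E10.5 groups. Its fold change rests on low counts, and it was not called between genotypes at E10.5. *Thbs2*, a secreted matrix regulator, was lower in mutants at both stages, at 4.37 ± 0.535 and 2.18 ± 0.313 CPM at E10.0 (−1.01, SE 0.15) and at 5.46 ± 0.848 and 2.89 ± 0.731 CPM at E10.5 (−0.92, SE 0.22). *Thbs1* was higher at E10.5 (45.4 ± 6.83 to 63.7 ± 5.01 CPM, 0.49, SE 0.14). The genotypes did not overlap for these 4 genes in the comparisons given. With stage, 4 of the 11 rose in wild type and 6 in mutants, and 0 fell.

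Of 5 genes of the cartilage program that could be tested, 0 were called at E10.0 (1 at an unadjusted P under 0.05, edgeR) and 1 was lower in mutants at E10.5, *Hapln1*, which links aggrecan to hyaluronan (90.9 ± 7.66 to 67.6 ± 11.3 CPM, edgeR FDR 0.0638). *Sox9*, which drives cartilage formation and acts on *Col2a1*, rose with stage from 49.4 ± 11.2 to 71.3 ± 1.69 CPM in wild type (edgeR FDR 0.0066) and from 50.2 ± 8.81 to 87.3 ± 2.68 CPM in mutants (SD, n=4 each).

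Cell type markers moved with some of these comparisons, for which 6.61% (E10.0) and 3.73% (E10.5) of all genes were called between genotypes. In bulk samples, fewer cells of a type and less RNA per cell cannot be told apart. Of 8 limb mesenchyme markers, 1 was above and 4 were below wild type in mutants at E10.0, with a summed level of 919 to 1091 CPM against 1120 to 1293 CPM. At E10.5, 1 was above and 3 were below, with 1144 to 1266 against 1382 to 1445 CPM. The marker sums of the genotypes thus did not overlap, and those of the mutants were lower. *Prrx1*, at the group means given above, made up a large part of these sums. The study names *Prrx2* and *Hoxd13*, 2 of these markers, among the genes that SMAD4 regulates. A change of such markers within the cells cannot be told apart from a change in the number of mesenchymal cells.

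Of 6 markers of mesothelium and body wall, 4 were above wild type in mutants at E10.0, with sums of 32.0 to 64.0 CPM against 12.1 to 17.6 CPM. At E10.5, 3 were below wild type, with 10.9 to 15.6 against 20.7 to 26.4 CPM. All 6 macrophage markers tested rose with stage in both genotypes. Called higher were 5.39% of all genes in wild type and 10.8% in mutants. The sum over the 8 listed macrophage markers went from 2.51 to 6.40 CPM to 12.9 to 14.6 CPM in wild type. In mutants it went from 6.97 to 8.93 CPM to 14.5 to 24.9 CPM. With sums of a few CPM at E10.0, the filter on low counts may have favoured markers that were higher at E10.5.

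Of 6 muscle precursor markers, 3 were above wild type in mutants at E10.0 and 1 was below at E10.5. Of 5 somite and sclerotome markers, 2 were above and 1 was below at E10.0, and 3 were above and 1 was below at E10.5. The 8 endothelial markers all had reads and were not called between genotypes in edgeR (2 and 1 at an unadjusted P under 0.05). Of 8 ectoderm markers, 1 was below wild type at E10.0 and 0 were called at E10.5 (0 at an unadjusted P under 0.05). The 6 erythroid markers tested were not called in these comparisons, *Hba-a1* had no reads, and of 2 neural crest markers tested 1 was below wild type at E10.5. The part of any of these cell types in the collagen values was not tested.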

How the data were processed

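RNA-seq of whole forelimb buds (14 embryos in 4 groups of 3 or 4) was single-read, polyA-selected and not stranded. The authors aligned reads to mm9 with TopHat2 2.0.13 and counted uniquely mapped reads per refGene symbol with HTSeq, and they deposited raw counts, so that reads shared by similar genes were dropped. Reads outside genes (6.18% to 9.86%) and ambiguous reads (1.49% to 1.75%) were left out.

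After the study's methods, the 1041 symbols of chromosomes X, Y and M were excluded, the 12393 genes reaching 1 CPM in 3 or more samples were kept, libraries were scaled by TMM (factors 0.934 to 1.035), tagwise dispersions (prior of 10 degrees of freedom) were estimated over all 14 samples, and groups were compared by the exact test of edgeR, with P-values adjusted after Benjamini and Hochberg. That test was used because the study names it. The interaction used the quasi-likelihood test. SEs came from replicate variances of log2 CPM (prior count 2), which understates the error of low genes. Replicates were different embryos, and none were near-identical (lowest chi-square per degree of freedom of 18 pairs 12.2). The tests were tried on simulated counts.

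The members, classes, lists and naming rule were chosen with earlier results of these data known. Named with values were collagen genes called in any comparison and the highest per class by CPM per kb of all exons. From each list, up to 2 genes per direction called between genotypes were named, with *Smad4*. Genes named besides these (*Rn45s*, *Prrx1*, and genes called under an alternative, between stages or next to a called gene) were chosen after their values were seen. Positions and lengths were from GENCODE M1 (mm9). The promoter table holds no entry for *Col12a1*. edgeR 4.0.16 and DESeq2 1.42.0 ran in R 4.3.3, and pandas 2.3.3 and matplotlib 3.10.9 in Python 3.11.15.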

Additional observations from a re-analysis of the deposited data

Results flagged for a closer look

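In the groups of 4, a single embryo lay far from the other 3 in 5 of 40 groups examined over 20 collagen genes, and chance alone sets apart about 1 in 20 such groups. *Col12a1* was at 55.0 CPM in mutant replicate 1 at E10.5 and at 34.7 to 38.0 CPM in the other mutants. *Col9a1* was at 50.6 CPM in the same embryo and at 56.3 to 57.0 CPM in the others. *Col3a1* was at 458 CPM in mutant replicate 5 at E10.5, below the 533 to 539 CPM of the others. *Col4a1* was at 416 CPM in mutant replicate 4 at E10.5, above 338 to 350 CPM. *Col9a3* was at 0.855 CPM in mutant replicate 1 at E10.0, below 1.13 to 1.15 CPM.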

How the results depend on the processing

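The 25 called values of single collagen genes were recomputed under the alternative settings, which gave 561 values. Of these, 495 stayed past the threshold, 66 did not, and 0 changed direction. *Col12a1* at E10.0 passed in all 23 alternatives tried for it (log2 fold change 0.89 to 1.35). At E10.0, 2 collagen genes were called, and 1 with the quasi-likelihood test, without the filter on low counts or with only the 2 groups fitted, 8 without mutant replicates 4 and 5, and 1 to 3 with each embryo left out. Leaving out mutant replicate 3 or wild-type replicate 3 left 1. At E10.5, 2 were called, and 0 with the quasi-likelihood test, 1 with DESeq2, 1 with a mean of at least 1 CPM over the samples (chosen after seeing the data), and 0 to 3 with each embryo left out. It was 0 without wild-type replicate 2 and 1 without wild-type replicate 1 or 3, mutant replicate 4 or wild-type replicate 3 of E10.0. Between stages, leaving out each embryo gave 3 to 12 in wild type (3 without replicate 2 at E10.0) and 8 to 14 in mutants. The interaction gave 0 to 1, with 1 without that same embryo. Whether the numbers shared by wild-type and mutant replicates pair the embryos could not be decided. The deviations of 4 same-numbered pairs had correlations of −0.212 to 0.141, against −0.241 to 0.296 for 20 other pairs. So few pairs, from groups of 3 or 4 embryos, can neither show nor exclude a pairing. With the number as a replicate block, 7 were called at E10.0 (1 higher, 6 lower), 1 at E10.5 (*Col27a1*), 11 between stages in wild type and 12 in mutants. The numbers 4 and 5 occur only in mutants, so that the block also sets these replicates apart from wild type. Between genotypes, this fit is therefore not independent of the one without them. The cause of the shifts under the other settings was not tested. The counts of this section are given without the share of all genes called. They thus show how the calls moved with the settings, and not whether collagen genes stood out. Genes of a few reads, such as *Col6a6*, are limited by depth.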
